A study of Mus musculus with 4 samples.

Results

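Genes that drive mitotic entry were examined in intestinal stem cells with and without induced deletion of Rprd1b, which encodes the nuclear protein CREPT. They are the A cyclins Ccna1 and Ccna2, the B cyclins Ccnb1 and Ccnb2, the kinase Cdk1, the phosphatases Cdc25a, Cdc25b and Cdc25c, the kinase Plk1 and the inhibitory kinase Wee1. These 10 genes were taken by symbol from the table of 18436 genes that the authors deposited. RNA was sequenced from Lgr5-GFPhigh cells, the brightest cells sorted from dissociated intestinal crypts of mice in which the Lgr5 gene drives both GFP and a tamoxifen-inducible Cre recombinase. The Lgr5-WT group held 2 C57BL/6 mice with this allele and no floxed Rprd1b, and the Lgr5-CREPTKO group held 2 C57BL/6 mice that also carried CREPT fl/fl, in which exon 3 of Rprd1b is flanked by loxP sites. The mice of both groups received tamoxifen by intraperitoneal injection at 1 mg a day for 5 days, and cells were sorted on day 7. The study used mice of 6 to 8 weeks and of both sexes, and the age and sex of each mouse sequenced were not given in the sources used here. The Lgr5-driven allele is mosaic and silent in part of the crypts of adult mice, so the cells come from the others, and recombination is limited to cells in which the Lgr5 gene is or was active.

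A cell enters mitosis when Cdk1, bound to a cyclin, is switched on. Cyclin A and cyclin B accumulate as the cell passes from S phase through G2, and each brings Cdk1 to its substrates. Until then Wee1 and the related kinase Myt1 hold Cdk1 inactive by phosphorylating it, the Cdc25 phosphatases remove those phosphates, and Plk1 tips the balance by activating Cdc25 and marking Wee1 for destruction. In the intestine, the Lgr5 stem cells at the crypt base divide about daily and their daughters divide faster still, so these genes are in constant use in crypts. Much of their control acts on the proteins, which RNA does not measure.

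The values are FPKM, the fragments of a gene scaled to the length of its transcripts and to the mapped fragments of the library. They give a level per length that can be compared between genes. A comparison between mice also depends on the scaling, since the sums of FPKM differed. The sums were 495758 and 499327 for Lgr5-WT mice, against 468830 and 473662 for Lgr5-CREPTKO mice. FPKM values do not state the number of reads, and the absolute depth was not estimated. The value that recurred most often among microRNA genes of one length, taken to mark a small whole number of reads, was 0.984 times that of Lgr5-WT mouse 1 in Lgr5-WT mouse 2 (median over 9 lengths), 0.993 times in Lgr5-CREPTKO mouse 1 (7 lengths) and 1.03 times in Lgr5-CREPTKO mouse 2 (8 lengths). Single lengths ranged widely, from 0.33 to 9.67 times, since the commonest value need not mark the same number of reads. These medians are therefore a rough guide to relative depth, where a higher value per read goes with fewer mapped fragments. Fold changes below are differences of log2(FPKM + 0.5), Lgr5-CREPTKO minus Lgr5-WT, which understate the change of genes with low values. limma's moderated test was run on the 12621 genes whose mean reached 0.5 FPKM, with Benjamini-Hochberg adjustment over all of them, and a gene is called when its adjusted p is below 0.05. By permutation alone, an exact two-sided p for groups of 2 is never smaller than 0.33, and each call therefore leans on limma's pooled estimate of the spread.

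The targeted gene was read first. Rprd1b lies on the plus strand of chromosome 2 of GRCm38.p6, at 158028475 to 158078207. It measured 17.7 and 18.1 FPKM in Lgr5-WT mice, against 6.65 and 7.36 FPKM in Lgr5-CREPTKO mice. Both Lgr5-CREPTKO mice were far below both Lgr5-WT mice. Its log2 fold change was -1.29 (standard error 0.0946, limma adjusted p = 0.0280), and fragments of transcripts without exon 3 may still be assigned to it. Tgm2, which overlaps it on the other strand, and other genes share 5.59% of its 50-base words. The call was lost with any one of the 4 mice left out (limma adjusted p between 0.144 and 0.305), without the filter on low values (0.116) and without the intensity trend (0.0623), with a range of 0.0227 to 0.305 over the alternatives. The fold change stayed between -1.36 and -1.22. The share of sorted cells that had recombined, and their CREPT protein, were not measured here. Lgr5, the receptor that marks the stem cells and the sorting gate, was 47.7 and 37.7 FPKM in Lgr5-WT mice, against 52.0 and 60.1 FPKM in Lgr5-CREPTKO mice. Olfm4, another marker of these cells, was the most abundant gene of the stem cell list in every mouse, at 5077 and 4932 FPKM against 5351 and 5181 FPKM. Both markers were higher in both Lgr5-CREPTKO mice, and neither was called (limma adjusted p = 0.176 for Lgr5 and 0.685 for Olfm4). The log2 fold change of Lgr5 was 0.40, and it was 0.23 without Lgr5-WT mouse 2. That of Olfm4 was 0.073, and it was 0.15 with each mouse scaled to the same sum of FPKM. Quantile normalization sets values by rank alone, so the equal genotype means of Olfm4 after it do not bear on this difference.

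All 10 mitotic entry genes passed the filter on low values, and 0 of 10 were called in either direction by limma's moderated test. Over all genes tested 337 (2.67%) were called lower and 52 (0.412%) higher in Lgr5-CREPTKO cells, so a list of this size would often hold no call. With each mouse scaled to the same sum of FPKM the calls over all genes were 242 lower and 86 higher, and with any one of the 4 mice left out they were 0 lower and 0 higher. Without adjustment, limma's p was below 0.05 for 2 of the 10, Ccna2 and Cdc25b, both lower, against 1916 (15.2%) lower and 1170 (9.27%) higher of all genes tested. In this fit the count is near the background. It was 4, all lower, without the filter on low values, against 12.2% of all genes lower. Without the intensity trend it was also 4, all lower, against 14.4%. In 7 of 10, Ccna1, Ccna2, Ccnb1, Cdk1, Cdc25b, Cdc25c and Plk1, both Lgr5-CREPTKO values were below both Lgr5-WT values, against 3908 (31.0%) of all genes tested. In 1 of 10, Wee1, both were above, against 3233 (25.6%) of all genes tested. In Ccnb2 and Cdc25a the genotypes overlapped. The median log2 fold change of the 10 was -0.26, beside -0.014 over all genes tested. With each mouse scaled to the same sum of FPKM these medians were -0.18 and 0.058, and without Lgr5-WT mouse 2 they were -0.17 and -0.019. Several of these genes are among those the study selected and displayed from the same libraries as promoting the cell cycle, so their direction is not independent evidence. In sorted bulk RNA, fewer cells in G2 and M phase and less of these RNAs per cell cannot be told apart.

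**Figure D1:**
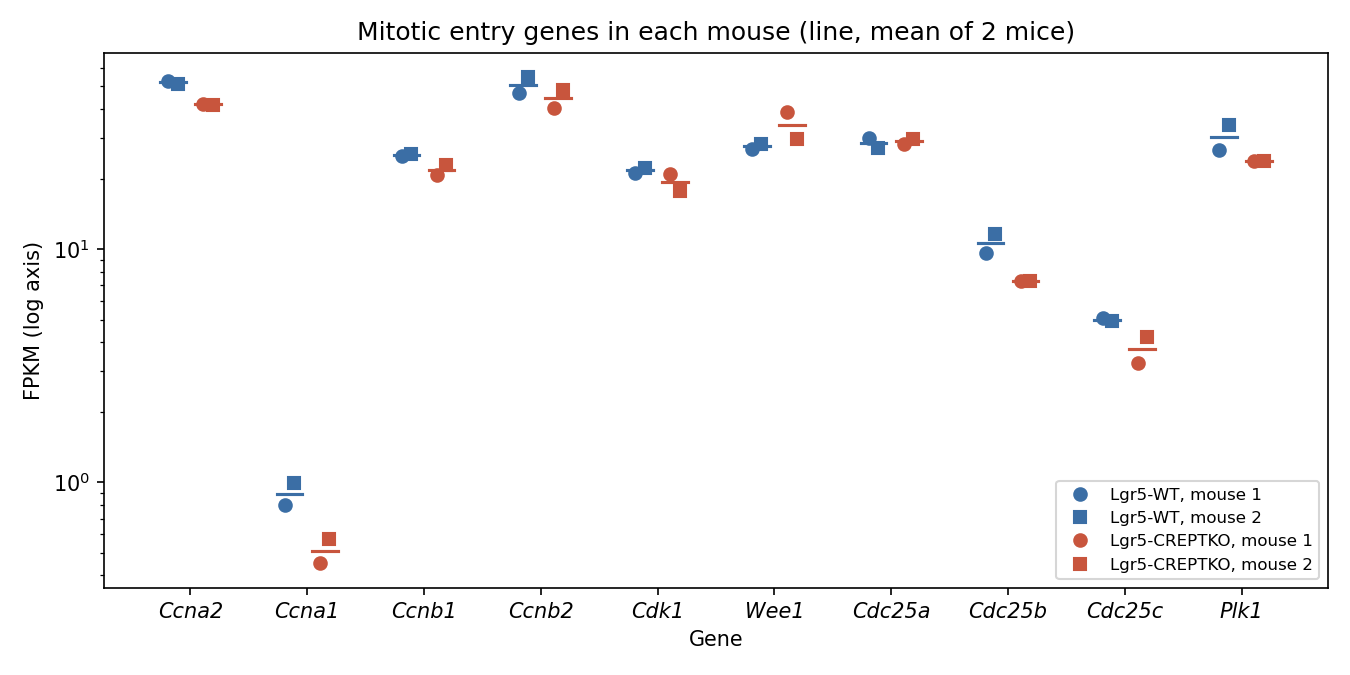
FPKM (log axis) of the 10 mitotic entry genes in each of the 2 Lgr5-WT mice (blue) and 2 Lgr5-CREPTKO mice (red), with circles for mouse 1, squares for mouse 2 and a line at the mean of each genotype. Levels run from 0.45 FPKM (Ccna1) to 54.7 FPKM (Ccnb2), and the red points lie below the blue ones in 7 genes and above them in Wee1.

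By level, the 10 genes fell into 3 tiers. Ccna2 (mean 52.1 ± 0.898 FPKM, SD, n = 2) and Ccnb2 (50.8 ± 5.59 FPKM) were highest in Lgr5-WT cells and did not differ beyond their spread. A middle tier held Plk1 (30.3 ± 5.27 FPKM), Cdc25a (28.7 ± 2.03 FPKM), Wee1 (27.6 ± 1.13 FPKM), Ccnb1 (25.4 ± 0.453 FPKM) and Cdk1 (21.8 ± 0.686 FPKM). In this tier Plk1, Cdc25a and Wee1 lay within their spread of each other, while both values of Ccnb1 exceeded both values of Cdk1. Cdc25b (10.6 ± 1.42 FPKM), Cdc25c (5.0 ± 0.0919 FPKM) and Ccna1 (0.895 ± 0.134 FPKM) followed, each clear of the next. In Lgr5-CREPTKO cells Wee1 (34.2 ± 6.29 FPKM) came directly after Ccnb2 (44.5 ± 5.59 FPKM) and Ccna2 (41.9 ± 0.247 FPKM), and its value in mouse 1 neared those of both. The order of the lowest 3 was the same in both genotypes.

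The promoters are shown because genes of this group share a known control: in quiescent cells and early in the cycle a repressor complex binds a short element called the CHR (cell cycle genes homology region) near the start site, and the factor NF-Y activates them through CCAAT boxes. In RefSeq's table of GRCm38.p6, which gives 250 bases before and 50 after a start, 7 of the 10 genes were found: Ccna1, Ccnb1, Ccnb2, Cdk1, Cdc25a, Cdc25b and Plk1. The letters TTTGAA or TTCGAA, on either strand, were taken as the CHR, and CCAAT on either strand as the CCAAT box. A CHR match occurred in 4 of the 7 (57.1%), Ccnb2, Cdk1, Cdc25b and Plk1, against 1305 of 9498 promoters of genes tested (13.7%). A CCAAT match occurred in 7 of 7, against 3729 of 9498 (39.3%), and both in 4 of 7, against 571 of 9498 (6.01%). A match is a description of letters in this window and shows no binding, and the genes were picked for their role, not at random. The following stretches hold matches near the starts, 5′ to 3′ on the strand of the gene, with CHR and CCAAT letters in capitals (ATTGG is CCAAT on the other strand). They are Ccnb1 at chr13:100786541-100786596 (minus strand), Ccnb2 at chr9:70421535-70421664 (minus), Cdk1 at chr10:69352909-69353022 (minus), Plk1 at chr7:122159325-122159434 (plus) and, around its CHR, chr7:122159455-122159484, Cdc25a at chr9:109875469-109875547 (plus), and Cdc25b, around its CHR, at chr2:131186936-131186965 (plus).
Ccnb1: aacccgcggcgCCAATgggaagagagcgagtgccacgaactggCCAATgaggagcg
Ccnb2: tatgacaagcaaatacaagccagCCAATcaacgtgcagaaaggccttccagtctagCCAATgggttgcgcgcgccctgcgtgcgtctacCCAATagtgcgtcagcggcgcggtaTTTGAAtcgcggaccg
Cdk1: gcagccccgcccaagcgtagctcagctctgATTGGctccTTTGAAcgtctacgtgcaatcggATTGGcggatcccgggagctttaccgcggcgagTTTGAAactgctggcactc
Plk1: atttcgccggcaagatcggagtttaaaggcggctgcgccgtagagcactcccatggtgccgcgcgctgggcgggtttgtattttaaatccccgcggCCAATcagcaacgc
Plk1 downstream of the start: cagcgccgcgTTTGAAttcggggaggagcg
Cdc25a: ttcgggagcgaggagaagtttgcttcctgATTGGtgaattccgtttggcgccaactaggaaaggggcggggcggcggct
Cdc25b: ggcgctgccgctgttatttTTCGAAtatat
The layouts differed. Positions are counted from the start in the promoter table, which is that of the RefSeq gene for Ccnb1, Ccnb2, Cdk1 and Plk1 and lies 61 bases inside the gene for Cdc25a, 512 for Cdc25b and 2579 for Ccna1. Ccnb2 held 3 CCAAT matches, from positions -87, -54 and -21, and a CHR match from position 5, with another from -167 outside the stretch shown. Cdk1 held 2 CHR matches, from -71 and -15, among CCAAT matches on the other strand from -80 and -48, with another from -208 outside the stretch shown. Plk1 and Cdc25b each held 1 CHR match, from positions 31 and 8, and 1 CCAAT match, from -14 and, outside the stretch shown, -28. Ccnb1 (from -99 and -67), Cdc25a (from -81 and, outside the stretch shown, -131) and Ccna1 (from -107) held CCAAT matches and no CHR match in the window. The genes with and without a CHR match were mixed in their fold changes, with Cdc25b at -0.50 and Cdk1 at -0.16 among the former, and Ccna1 at -0.47 and Cdc25a at 0.019 among the latter, and no test was made of this.

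Cyclin A binds Cdk2 in S phase and Cdk1 in G2. Ccna2, the form of dividing somatic cells, lies on chromosome 3 from 36564865 to 36573038 on the minus strand, and its longest coding transcript has 8 exons. It was 52.7 and 51.4 FPKM in Lgr5-WT mice, against 42.1 and 41.7 FPKM in Lgr5-CREPTKO mice. The mice of each genotype were close to each other and the genotypes were clearly apart. On the log2 scale the difference was -0.31 (95% interval -0.48 to -0.14), the most precise of the 10, and its adjusted p of 0.0764 from limma missed the threshold. Over the alternatives the limma adjusted p was between 0.0739 and 0.322 and the fold change between -0.33 and -0.23. The 3′ end of Ccna2 overlaps that of Exosc9, an exosome subunit gene on the other strand, with which it shares 11.4% of its 50-base words. Exosc9 was 22.9 and 20.7 FPKM in Lgr5-WT mice, against 20.1 and 21.7 FPKM in Lgr5-CREPTKO mice, and the genotypes overlapped. Whether strand was used in counting was not given in the sources used here. Ccna1, the form best known from male germ cells, lies on the same chromosome from 55045469 to 55057634. It was 0.80 and 0.99 FPKM in Lgr5-WT mice, against 0.45 and 0.57 FPKM in Lgr5-CREPTKO mice. Its values did not overlap, but at this level the interval was wide (log2 fold change -0.47, 95% interval -1.08 to 0.15, limma adjusted p = 0.303). The fold change ranged from -0.71 with a pseudocount of 0.1 to -0.33 with a pseudocount of 1 or after quantile normalization. Ccna1 shares 6.98% of its 50-base words with the antisense gene 4931419H13Rik, which overlaps it and was not among the deposited genes.

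The B cyclins are the partners that carry Cdk1 into mitosis and are destroyed at its end. Ccnb1 lies on chromosome 13 from 100778739 to 100786486. Its level was 25.1 and 25.7 FPKM in Lgr5-WT mice, against 20.9 and 23.0 FPKM in Lgr5-CREPTKO mice. Both Lgr5-CREPTKO values were lower, with Lgr5-CREPTKO mouse 1 the lowest. Ccnb1 had a log2 fold change of -0.21 (95% interval -0.42 to 0.01, limma adjusted p = 0.221), and it was -0.13 with each mouse scaled to the same sum of FPKM. Of the 50-base words of its transcripts 23.4% also occur in 6 other genes, mostly the pseudogene Ccnb1-ps, which was not among the deposited genes. How reads with these words were assigned was not given in the sources used here. Ccnb2, whose product sits mainly at the Golgi, lies on chromosome 9 from 70407689 to 70421554. It was 46.8 and 54.7 FPKM in Lgr5-WT mice, against 40.5 and 48.5 FPKM in Lgr5-CREPTKO mice. Here the mice of one genotype differed by as much as the genotypes did, and the ranges overlapped. Ccnb2 had a log2 fold change of -0.19 (95% interval -0.51 to 0.13, limma adjusted p = 0.411). It was -0.079 without Lgr5-WT mouse 2, -0.063 without Lgr5-CREPTKO mouse 1, -0.30 and -0.32 without the other mouse of each genotype, and -0.11 with the sum fixed. No 50-base word of Ccnb2 occurred in another gene.

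Cdk1 itself lies on chromosome 10 from 69335146 to 69352912. Its level was 21.3 and 22.3 FPKM in Lgr5-WT mice, against 21.1 and 17.9 FPKM in Lgr5-CREPTKO mice. Lgr5-CREPTKO mouse 1 was just under the Lgr5-WT mice and Lgr5-CREPTKO mouse 2 was lower, so that this separation is thin, and with each mouse scaled to the same sum of FPKM or after quantile normalization the genotypes overlapped. The log2 fold change was -0.16 (95% interval -0.44 to 0.11, limma adjusted p = 0.404), and it was -0.047 without Lgr5-CREPTKO mouse 2, -0.28 without Lgr5-CREPTKO mouse 1 and -0.087 with the sum fixed (limma adjusted p between 0.31 and 0.812 over the alternatives). Wee1, the kinase that restrains Cdk1, lies on chromosome 7 from 110122059 to 110143299. It was 26.8 and 28.4 FPKM in Lgr5-WT mice, against 38.7 and 29.8 FPKM in Lgr5-CREPTKO mice. Both Lgr5-CREPTKO values were higher, mostly through Lgr5-CREPTKO mouse 1. The log2 fold change was 0.29 (95% interval -0.06 to 0.65, limma adjusted p = 0.271), and it was 0.11 without that mouse and 0.48 without Lgr5-CREPTKO mouse 2. The antisense gene 1600010M07Rik overlaps Wee1 and was at most 0.18 FPKM in any mouse.

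The Cdc25 phosphatases release Cdk1 from the block that Wee1 sets. Cdc25a, which also acts at the start of S phase, lies on chromosome 9 from 109875518 to 109893895. It was 30.1 and 27.3 FPKM in Lgr5-WT mice, against 28.4 and 29.7 FPKM in Lgr5-CREPTKO mice. The genotypes overlapped fully and the log2 fold change was 0.019 (95% interval -0.20 to 0.24, limma adjusted p = 0.918). It was -0.052 without Lgr5-WT mouse 2 and -0.012 without Lgr5-CREPTKO mouse 2. Cdc25b, thought to start the activation of Cdk1 at the centrosome, lies on chromosome 2 from 131186436 to 131198511, on the chromosome of Rprd1b. It was 9.61 and 11.6 FPKM in Lgr5-WT mice, against 7.35 and 7.33 FPKM in Lgr5-CREPTKO mice. The Lgr5-CREPTKO mice were almost equal and lay below both Lgr5-WT mice. At -0.50 (95% interval -0.81 to -0.18) its log2 fold change was the furthest from 0 among the 10 with a pseudocount of 0.5. With a pseudocount of 0.1 Ccna1 (-0.71) lay beyond Cdc25b (-0.52), as did Ccna1 (-0.55) and Cdc25c (-0.55) beyond Cdc25b (-0.50) without Lgr5-CREPTKO mouse 2, and Cdc25c (-0.40) beyond Cdc25b (-0.37) without Lgr5-WT mouse 2. For Cdc25b the adjusted p of 0.0954 from limma missed the threshold, with a range of 0.0848 to 0.345 over the alternatives. Its 5′ end overlaps that of Spef1 on the other strand, with which it shares 1.15% of its 50-base words. Spef1 was 11.2 and 16.7 FPKM in Lgr5-WT mice, against 11.7 and 12.0 FPKM in Lgr5-CREPTKO mice, and the genotypes overlapped. Cdc25c, which amplifies the activation of Cdk1 once it has begun, lies on chromosome 18 from 34732993 to 34751564. It was 5.06 and 4.93 FPKM in Lgr5-WT mice, against 3.26 and 4.19 FPKM in Lgr5-CREPTKO mice. Both Lgr5-CREPTKO values were lower, and they differed more from each other than the Lgr5-WT values did. Cdc25c had a log2 fold change of -0.39 (95% interval -0.78 to 0.0025, limma adjusted p = 0.207), and it was -0.23 without Lgr5-CREPTKO mouse 1. Cdc25c shares 11.9% of its 50-base words with other genes, mostly Gm3550, which lies within it on the other strand.

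Plk1 activates Cdc25 and marks Wee1 for degradation, and later acts at centrosomes and kinetochores. It lies on chromosome 7 from 122159435 to 122169884. Its level was 26.6 and 34.0 FPKM in Lgr5-WT mice, against 24.0 and 23.9 FPKM in Lgr5-CREPTKO mice. The Lgr5-CREPTKO mice were almost equal and below both Lgr5-WT mice, of which mouse 2 was the higher. Plk1 had a log2 fold change of -0.32 (95% interval -0.66 to 0.02, limma adjusted p = 0.220), and it was -0.15 without Lgr5-WT mouse 2 and -0.50 without Lgr5-WT mouse 1. Of its 50-base words 10.4% occur in other genes, mostly the pseudogene Plk-ps1, and Gm44985 overlaps it on the other strand.

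**Figure D2:**
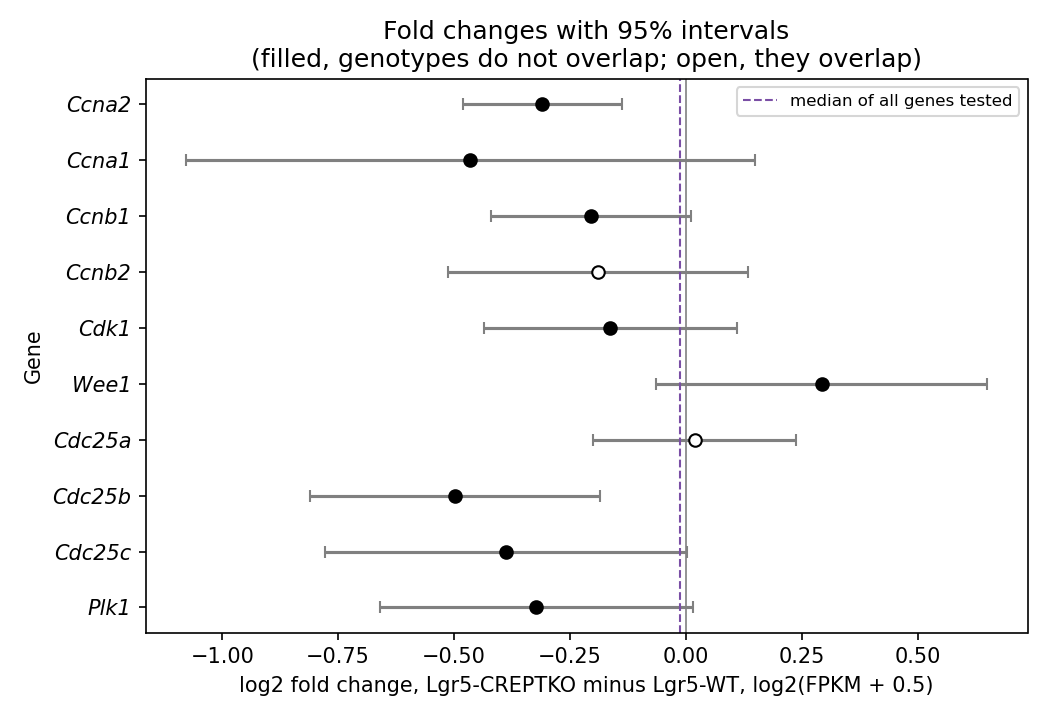
Log2 fold change of each mitotic entry gene, Lgr5-CREPTKO minus Lgr5-WT on the log2(FPKM + 0.5) scale, with 95% intervals from limma (2 mice per genotype), where filled points mark genes whose genotypes do not overlap and the dashed line is the median of all genes tested (-0.014). The intervals of Ccna2 and Cdc25b lie wholly below 0, those of the other 8 genes include 0 (that of Cdc25c just so), and Wee1 (0.29) lies on the other side from Cdc25b (-0.50).

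Ratios between genes of one mouse do not depend on how the mouse was scaled. The log2 ratio of Cdc25b to Wee1, an activator and an inhibitor of Cdk1, was -1.48 and -1.29 in Lgr5-WT mice, against -2.40 and -2.02 in Lgr5-CREPTKO mice. Both Lgr5-CREPTKO mice were lower, and the difference of the means, -0.82, exceeded the SD within either genotype (0.13 and 0.26). It was between -1.01 and -0.64 with 1 mouse left out. The pair was set down with the earlier results known, and no test was made of it. It joins the lowest (Cdc25b, -0.50) and the highest (Wee1, 0.29) log2 fold change of the 10 genes. Its separation therefore follows from that choice. Cdc25a, the most abundant of the Cdc25 genes, overlapped between genotypes (log2 fold change 0.019), so the difference describes this pair only. The log2 ratio of Plk1 to Cdk1 was 0.32 and 0.61 in Lgr5-WT mice, against 0.19 and 0.42 in Lgr5-CREPTKO mice. That of Ccnb1 to Cdk1 was 0.23 and 0.20 in Lgr5-WT mice, against -0.01 and 0.36 in Lgr5-CREPTKO mice. Both of these overlapped between the genotypes, and the difference in the latter turned from -0.042 to 0.15 without Lgr5-CREPTKO mouse 1.

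**Figure D3:**
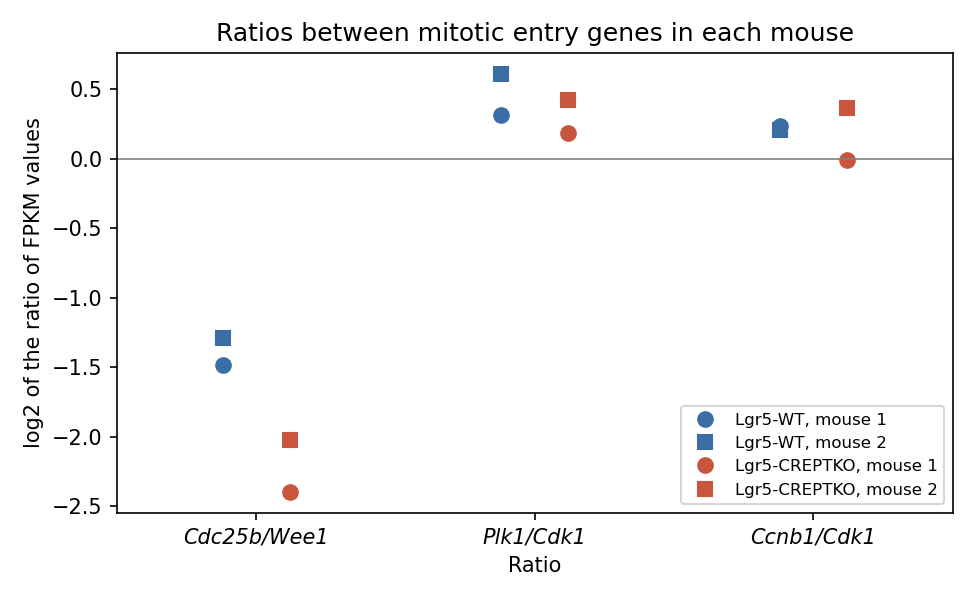
Log2 ratio of FPKM values for Cdc25b to Wee1, Plk1 to Cdk1 and Ccnb1 to Cdk1 in each Lgr5-WT mouse (blue) and Lgr5-CREPTKO mouse (red), with circles for mouse 1 and squares for mouse 2. The genotypes are apart for Cdc25b to Wee1 (-1.48 and -1.29 against -2.40 and -2.02) and overlap for the other ratios.

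The makeup of each family was compared as well. The A and B cyclins summed to 125.4 and 132.8 FPKM in Lgr5-WT mice, against 104.0 and 113.7 FPKM in Lgr5-CREPTKO mice, so the summed level was lower in both Lgr5-CREPTKO mice. Within that sum Ccna2 took 42.0% and 38.7% in Lgr5-WT mice, against 40.5% and 36.7% in Lgr5-CREPTKO mice, and Ccnb2 took 37.4% and 41.2% against 39.0% and 42.6%. The share of Ccnb1 was between 19.3% and 20.2% in all 4 mice. The genotypes overlapped in the shares of Ccna2 and Ccnb2, while that of Ccnb1 was higher by a small margin in both Lgr5-CREPTKO mice. The share of Ccna1 was lower in both, at 0.638% and 0.745% in Lgr5-WT mice, against 0.433% and 0.501% in Lgr5-CREPTKO mice. The Cdc25 genes summed to 44.8 and 43.8 FPKM in Lgr5-WT mice, against 39.0 and 41.2 FPKM in Lgr5-CREPTKO mice. Cdc25a took 67.3% and 62.2% of that in Lgr5-WT mice, against 72.8% and 72.0% in Lgr5-CREPTKO mice, and Cdc25b took 21.5% and 26.5% against 18.8% and 17.8%. Cdc25c took 11.3% and 11.3% against 8.35% and 10.2%. The genotypes did not overlap in any of these shares, and the share of Cdc25a was the larger in Lgr5-CREPTKO cells while its own level overlapped.

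**Figure D4:**
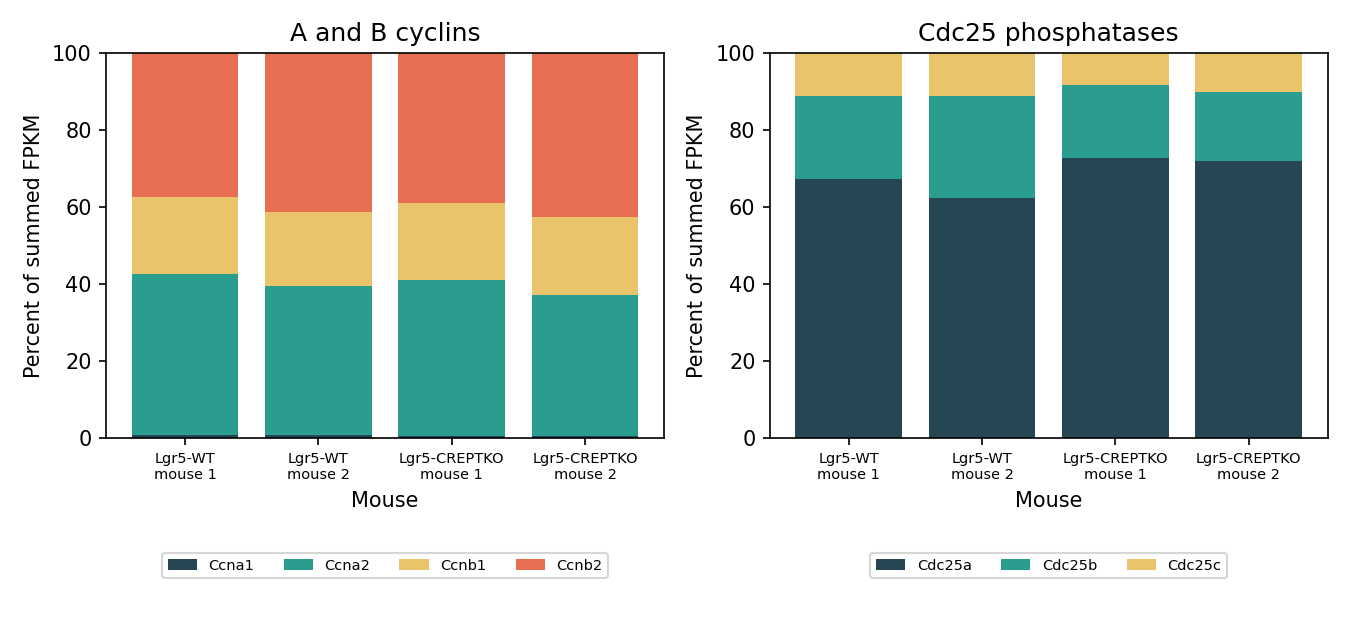
Share of each gene, in percent, in the summed FPKM of the A and B cyclins (left) and of the Cdc25 phosphatases (right) in each of the 4 mice. Cdc25a makes up 67.3% and 62.2% in Lgr5-WT mice, against 72.8% and 72.0% in Lgr5-CREPTKO mice, while the shares of Ccna2 and Ccnb2 overlap between genotypes.

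Other genes of the pathway were read from lists, chosen like the mitotic entry genes with earlier results known. Of the 77 genes tested in the first 5 lists, 0 were called in either direction by limma's moderated test, and without adjustment p was below 0.05 for 11 lower genes (14.3%) and 2 higher ones (2.6%), shares not above those of all genes tested (15.2% and 9.27%). Of all genes tested, 31.0% were apart and lower and 25.6% apart and higher, and the counts of each list are to be read beside these shares. For all genes the median fold change on the log2 scale was -0.014, and it was 0.058 with each mouse scaled to the same sum of FPKM, 0.035 after quantile normalization and between -0.029 and -0.0027 with a mouse left out, which is the background for the medians of the lists. The first list held the adaptors Cks1b and Cks2, the parts of the kinase that activates Cdks (Cdk7, Ccnh and Mnat1), the inhibitory kinase gene Pkmyt1, the related kinase Cdk2 and the cyclin-like Ccnf. Of its 8 genes tested, the genotypes were apart with lower values in Lgr5-CREPTKO cells in 6 (75.0%) and with higher values in 1 (12.5%). Before adjustment limma's p was below 0.05 for 3 lower genes (37.5%, against 15.2% of all genes tested) and 0 higher ones, so this small list lay above the pooled share. Its median log2 fold change was -0.19, which became -0.11 with each mouse scaled to the same sum of FPKM. Cks1b and Cks2, the small adaptors that help Cdk1 find phosphorylated substrates, were 27.3 and 29.9 FPKM against 22.9 and 21.6 FPKM, and 74.8 and 71.3 FPKM against 61.7 and 62.9 FPKM (limma adjusted p = 0.0935 and 0.133). Both were lower in both Lgr5-CREPTKO mice. The gene on the other side, named after its values were seen, was Pkmyt1, which encodes the inhibitory kinase Myt1. It was 22.6 and 20.6 FPKM in Lgr5-WT mice, against 25.7 and 23.5 FPKM in Lgr5-CREPTKO mice (log2 fold change 0.19, limma adjusted p = 0.286).

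The kinases and cofactors around Plk1, the Aurora kinases and Greatwall gave 6 genes apart and lower (40.0%) and 2 apart and higher among 15 tested, with a median of -0.15. That median was -0.073 with each mouse scaled to the same sum of FPKM, -0.089 without Lgr5-WT mouse 1 and -0.047 without Lgr5-CREPTKO mouse 2. Birc5, a subunit of the Aurora B complex, was 58.7 and 54.0 FPKM in Lgr5-WT mice, against 41.9 and 43.9 FPKM in Lgr5-CREPTKO mice, clearly apart (log2 fold change -0.39, limma adjusted p = 0.0701). Arpp19, a Greatwall substrate that inhibits the phosphatase opposing Cdk1, was 24.5 and 22.7 FPKM against 20.2 and 19.1 FPKM (limma adjusted p = 0.154). Of the anaphase-promoting complex (APC/C), the ubiquitin ligase that destroys the cyclins, and its regulators, 6 of 19 were apart and lower (31.6%, the share of all genes being 31.0%) and 3 apart and higher (15.8%), with a median of -0.091. That median was -0.016 with the sum fixed, -0.15 without Lgr5-WT mouse 1 and -0.050 without Lgr5-CREPTKO mouse 2. Its ubiquitin-conjugating enzymes Ube2c (99.3 and 118.2 FPKM against 77.0 and 83.8 FPKM) and Ube2s (128.2 and 139.9 FPKM against 118.4 and 115.6 FPKM) were lower in both Lgr5-CREPTKO mice (limma adjusted p = 0.0996 and 0.203). Its largest subunit gene, Anapc1, was 23.0 and 21.3 FPKM against 28.3 and 27.9 FPKM and so was higher in both (limma adjusted p = 0.0887).

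Of 16 genes for the transcription factors that act on G2 and M phase promoters, 5 were apart and lower (31.3%) and 2 apart and higher (12.5%), with a median of -0.071 (0.0062 with each mouse scaled to the same sum of FPKM, still below all genes). With a mouse left out it was between -0.13 (without Lgr5-WT mouse 2) and 0.0035 (without Lgr5-CREPTKO mouse 2). Lin37, a subunit of the complex that binds the CHR, was 16.7 and 18.0 FPKM in Lgr5-WT mice, against 13.8 and 13.2 FPKM in Lgr5-CREPTKO mice (limma adjusted p = 0.0959). E2f5, a repressor E2F, was 13.3 and 13.2 FPKM against 10.2 and 12.0 FPKM (limma adjusted p = 0.237), and Tfdp1, the E2F partner with the highest level of the list, was 87.2 and 79.7 FPKM against 82.6 and 73.8 FPKM and overlapped. Of 19 genes of the G2 checkpoint, which keeps Cdk1 inactive after DNA damage, 4 were apart and lower (21.1%) and 3 apart and higher (15.8%), and the median was -0.010, close to that of all genes, as it was with that scaling (0.068) and after quantile normalization (0.054). It was 0.091 without Lgr5-WT mouse 1, 0.013 without Lgr5-CREPTKO mouse 2 and -0.059 without Lgr5-WT mouse 2. Atm, the kinase that senses double-strand breaks, was 11.4 and 8.30 FPKM against 14.6 and 13.1 FPKM, higher in both Lgr5-CREPTKO mice, and Sfn, a 14-3-3 protein gene, was 91.6 and 83.9 FPKM against 77.4 and 59.5 FPKM, lower in both (limma adjusted p = 0.171 and 0.199). Ywhae, the most abundant of the list, was between 288.2 and 291.8 FPKM in all 4 mice.

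For comparison, wider lists of cycling genes distributed with the Seurat package were read. Of 51 G2/M genes, the mitotic entry genes left out, 21 were apart and lower (41.2%, against 31.0% of all genes) and 5 apart and higher (9.80%), 34 had a fold change below 0, and the median was -0.11. That median was -0.031 with each mouse scaled to the same sum of FPKM, where that of all genes was 0.058, and -0.062 after quantile normalization, where that of all genes was 0.035. It was -0.044 without Lgr5-WT mouse 1, where that of all genes was -0.018, and -0.035 without Lgr5-CREPTKO mouse 2, where that of all genes was -0.029. limma's moderated test called 0 of them, and without adjustment p was below 0.05 for 10 lower genes (19.6%, against 15.2% of all genes) and 1 higher gene. Hmgb2, a chromatin protein gene, was 152.8 and 145.0 FPKM in Lgr5-WT mice, against 120.6 and 114.4 FPKM in Lgr5-CREPTKO mice (log2 fold change -0.34, limma adjusted p = 0.0731). Tubb4b, the most abundant of the list, was 236.8 and 184.3 FPKM against 170.3 and 200.5 FPKM, and the genotypes overlapped. Mki67, the usual marker of cycling cells, named after its values were seen, was 55.9 and 48.9 FPKM against 66.1 and 57.7 FPKM and so was higher in both Lgr5-CREPTKO mice (log2 fold change 0.24, limma adjusted p = 0.256). Of 43 S phase genes 10 were apart and lower (23.3%) and 5 apart and higher (11.6%), both below the shares of all genes (31.0% and 25.6%), and the median was -0.037. It was 0.038 with each mouse scaled to the same sum of FPKM and 0.0039 after quantile normalization, both below all genes under the same setting. Single mice moved it to either side, to 0.13 without Lgr5-WT mouse 1, -0.20 without Lgr5-WT mouse 2, -0.15 without Lgr5-CREPTKO mouse 1 and 0.054 without Lgr5-CREPTKO mouse 2. limma's moderated test called 0 of these too, with p below 0.05 before adjustment for 6 lower genes (14.0%, against 15.2% of all genes) and 2 higher ones. Tyms, which makes thymidylate for DNA synthesis, was 24.5 and 24.3 FPKM against 15.7 and 12.2 FPKM, well below in both Lgr5-CREPTKO mice (log2 fold change -0.79, limma adjusted p = 0.056). Mrpl36 was 54.0 and 50.3 FPKM against 42.9 and 40.3 FPKM (limma adjusted p = 0.0940), and Cdca7, which had the highest mean of the list over all 4 mice though Pcna exceeded it in Lgr5-WT mouse 1, was 209.6 and 219.4 FPKM against 230.4 and 242.8 FPKM (limma adjusted p = 0.296). Both were apart, Mrpl36 lower and Cdca7 higher in Lgr5-CREPTKO cells. Lists share some genes with each other, Birc5, Ube2c, Cks1b and Cks2 among them, so they are not independent.

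**Figure D5:**
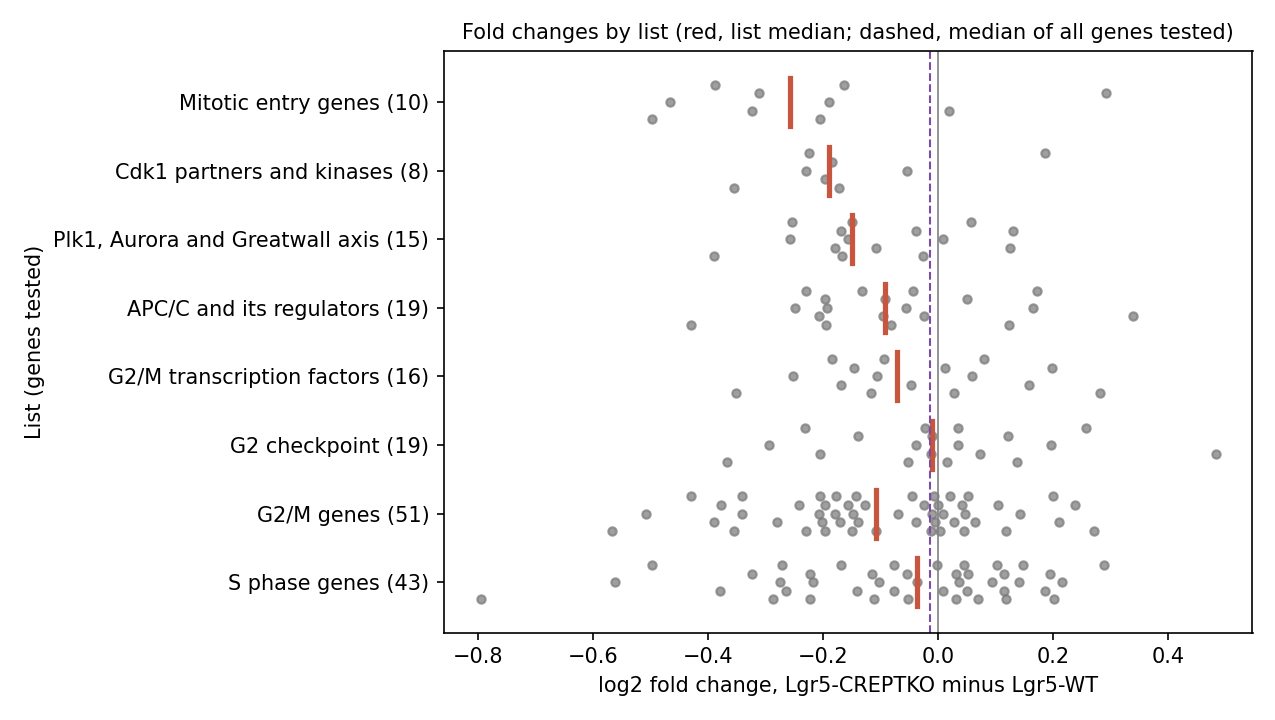
Log2 fold changes, Lgr5-CREPTKO minus Lgr5-WT, of the genes of each list (points, with the number of genes tested in parentheses), with the list median in red and the median of all genes tested (-0.014) dashed. Medians run from -0.26 for the mitotic entry genes and -0.19 for the Cdk1 partners and kinases to -0.037 for S phase genes and -0.010 for the G2 checkpoint (0.0062 for the transcription factors, 0.038 for S phase and 0.068 for the G2 checkpoint with each mouse scaled to the same sum of FPKM, which moves the median of all genes to 0.058).

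Markers of the cell types that the sorted gate could hold were read beside these results, and no listed marker was at 0 in all 4 mice. The counts of each marker list are to be read beside the shares of all genes tested. Of all genes, 2.67% were called lower and 0.412% higher. At an unadjusted limma p below 0.05, 15.2% were lower and 9.27% higher, and 31.0% were apart and lower and 25.6% apart and higher. The 13 stem cell markers, with Olfm4 the most abundant, summed to 7551 and 7617 FPKM in Lgr5-WT mice, against 7940 and 7912 FPKM in Lgr5-CREPTKO mice, with 9 apart and higher and 1 apart and lower. limma's moderated test called 0 of them, with p below 0.05 before adjustment for 1 lower gene (7.69%) and 6 higher ones (46.2%, against 9.27% of all genes tested). Of 15 enteroendocrine markers, 13 were tested and 6 were called lower, against 2.67% of all genes tested. All 15 together summed to 249.1 and 355.9 FPKM against 78.1 and 92.5 FPKM. Chgb (64.7 and 59.3 FPKM against 22.9 and 32.0 FPKM) was the highest in its mean over all 4 mice, though Gip exceeded it in Lgr5-WT mouse 2. The 9 goblet markers, 2 of them called lower, summed to 1479 and 2465 FPKM against 812.0 and 943.6 FPKM, with Tff3 (537.3 and 936.6 FPKM against 300.4 and 324.3 FPKM) the most abundant. Of 8 tuft markers 6 were tested, and these 6 were apart and lower, with 0 called by limma's moderated test and p below 0.05 before adjustment for 4. All 8 together summed to 24.1 and 52.0 FPKM against 19.5 and 7.25 FPKM. Avil (5.32 and 10.9 FPKM against 4.26 and 1.59 FPKM) was the highest in its mean over all 4 mice, though Trpm5 exceeded it in both Lgr5-CREPTKO mice. The median log2 fold changes of these lists were -1.56, -1.14 and -1.37. Without Lgr5-WT mouse 2 those of the goblet and tuft lists were -0.63 and -0.80, and that of the tuft list was -0.78 without Lgr5-CREPTKO mouse 2.

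The remaining lists followed single mice more than genotypes. The 8 Paneth markers of 9 found summed to 1441 and 1056 FPKM in Lgr5-WT mice, against 855.1 and 2627 FPKM in Lgr5-CREPTKO mice, with Defa24 (591.8 and 406.4 FPKM against 288.8 and 1081 FPKM) the most abundant. The 9 enterocyte markers summed to 507.6 and 638.5 FPKM against 393.7 and 637.9 FPKM, with Vil1 (170.6 and 182.1 FPKM against 87.1 and 118.8 FPKM) the highest in its mean over all 4 mice, though Fabp2 exceeded it in Lgr5-CREPTKO mouse 2. The 9 leukocyte markers, 7 of them tested, summed to 17.2 and 30.5 FPKM against 5.03 and 48.6 FPKM, with Gzma (10.3 and 21.0 FPKM against 2.09 and 35.1 FPKM) the most abundant. The 9 mesenchymal and endothelial markers were at or below 0.28 FPKM in every mouse and summed to at most 0.68 FPKM, with Pecam1 the most abundant on average (0.20 and 0.16 FPKM against 0.14 and 0.14 FPKM). Lgr5-CREPTKO mouse 2 had the highest Paneth and leukocyte sums and was level with Lgr5-WT mouse 2 in the enterocyte sum. In the Paneth, enterocyte and leukocyte lists limma's moderated test called 0 genes, with p below 0.05 before adjustment for 0, 1 and 1 genes, those lower. Enteroendocrine, goblet and tuft markers shifted, and the Lgr5-CREPTKO mice differed from each other. Whether either has a part in the values of the mitotic entry genes was not tested.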

How the data were processed

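The authors deposited FPKM values by gene symbol for each mouse. By the study's methods Bowtie2 aligned the reads (GRCm38.p6) and RSEM quantified them, and the submitters' processing notes also name HISAT without a role. limma 3.58.1 in R 4.3.3 (lmFit, and eBayes with an intensity trend) was run on log2(FPKM + 0.5) for the 12621 of 18436 genes whose mean reached 0.5 FPKM, with Benjamini-Hochberg adjustment. It was first tested on simulated data with planted changes far larger than those of the mitotic entry genes. That test does not show whether changes of their size would be called. The count model in the study's methods needs counts, so limma took its place, and its added condition, a log2 fold change beyond 1 in size, was an alternative. Mice were assigned by column names that match the sample titles. The members and lists were chosen with earlier results of these data known.

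Named genes are the 10 members, Rprd1b, Lgr5 and Olfm4, in each pathway list any called gene, the 2 with the smallest p and the most abundant one, and in each marker list the most abundant one. Pkmyt1 and Mki67 were added after their values were seen. Coordinates and promoters came from RefSeq (17637 of 18436 symbols found directly, 18333 with unique synonyms), exons, strands and 50-base words from GENCODE M21, and figures from Python 3.11.15 with matplotlib 3.10.9. Fam64a and Hn1 were matched to list symbols as synonyms, and Ccnb3 and Defa30 were not analysed here. Alternatives varied the pseudocount, filter, scaling, threshold and intensity trend, added a replicate block, or omitted each mouse in turn.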

Additional observations from a re-analysis of the deposited data

How the results depend on the processing

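With 2 mice per genotype and no counts, the precision of single genes is limited, and a mouse left alone in its genotype was assumed to vary like the others. The count of mitotic entry genes called was 0 under each alternative. Their count at an unadjusted p below 0.05 was 4 without a filter on low values (4 lower, against 12.2% of all genes lower) and 4 without an intensity trend (4 lower, against 14.4%), and between 1 and 3 with a mouse left out (against 9.33% to 12.6% lower and 5.02% to 7.26% higher). Genes called lower (and higher) over the whole table were 0 (and 0) without the filter, with a smallest adjusted p of 0.105, 4 (and 0) without an intensity trend, 128 (and 16) with an absolute log2 fold change above 1 also required, and between 0 and 0 with a mouse left out. Genes called higher were 86 with each mouse scaled to the same sum of FPKM, beside 242 lower. With the replicate block, 168 were called lower and 15 higher, and the block called no mitotic entry gene. Same-numbered mice are different animals, and whether they shared a litter, sorting day or batch was not given in the sources used here. Their deviations correlated at -0.027 across genes, which are not independent replicates, so this value does not settle whether the numbers pair them.

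Mitotic entry genes kept the sign of their fold change under each alternative, apart from Cdc25a, which was between -0.052 and 0.090 with a mouse left out, below 0 without Lgr5-WT mouse 2 (-0.052) and without Lgr5-CREPTKO mouse 2 (-0.012). Ywhae was at 0.068 with each mouse scaled to the same sum and at 0.13 after quantile normalization, and Tubb4b was between -0.36 and 0.0034 with a mouse left out, above 0 without Lgr5-WT mouse 1. The genotypes were apart with lower values in 6 mitotic entry genes with the sum fixed, against 23.3% of all genes, and in 6 after quantile normalization, against 25.1%, where Cdk1 overlapped. With a mean of at least 1 FPKM required, Ccna1 was left out. Tyms passed the threshold with that filter (limma adjusted p = 0.0498, between 0.0498 and 0.325 over its alternatives). With a mouse left out fewer mice, and with another filter more or fewer genes, entered the fit, and the cause of the other shifts was not tested.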
